A study of Schizosaccharomyces pombe with 3 samples.

Results

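Genes *srp1* and *srp2* encode the SR proteins of fission yeast, and their own pre-mRNAs contain introns. All introns of the deposited junction table that carry the gene name *srp1* or *srp2* are described here, which are 2 introns of *srp1* and 9 introns of *srp2*, 11 of 5368 junctions. The 3 libraries of the study, at 0, 30 and 60 min, came from *Schizosaccharomyces pombe* cells of the *prp4-as2* strain grown in EMM, a minimal medium. In this strain the *prp4* gene is replaced by an analogue-sensitive allele in which the gatekeeper phenylalanine of the kinase domain is alanine, linked to a kanamycin resistance marker, and the resulting kinase can be blocked with 1NM-PP1, a bulky ATP analogue. The groups were cells treated with 1NM-PP1 for 30 min, cells treated for 60 min, and untreated cells (0 min), which carry the same allele. A wild type strain given 1NM-PP1 is not analysed here, so inhibition of Prp4 and any other action of the compound cannot be told apart. Each condition is 1 library, made directionally from polyadenylated RNA, so there is no replicate error, no p-value is given, and every difference compares 2 libraries rather than 2 conditions.

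SR proteins bind pre-mRNA through an RNA recognition motif, and through a region rich in arginine and serine they contact other splicing factors and help the spliceosome to recognise splice sites. Their function and traffic depend on phosphorylation of the serines by kinases. In *S. pombe*, Srp2 is phosphorylated by Prp4, the kinase that acts in the spliceosome before catalysis, whereas Srp1 is not known as a substrate of Prp4. The question is how the introns of these genes were spliced when Prp4 was inhibited.

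The 5’ SS of an intron pairs with snRNA U1 and the branch sequence (bs) near its 3’ end pairs with snRNA U2. Intron sequences are from the RefSeq assembly ASM294v3 and run 5’ to 3’ on the strand of the gene. Capitals mark the first 6 bases, the final AG and matches to the branch pentamers CTNAC or CTNAT, as well as TTNAC or TTNAT. Matches were sought on this strand only, within the last 40 nt and after the first 6 bases. Matches can overlap or adjoin each other, 99.2% of the kept introns with sequence hold at least 1 match in this window, and 72.2% hold more than 1, so that a match is not a mapped branch site. Shown are both introns of *srp1*, which begin with the same 6 bases, and those introns of *srp2* on which the comparisons turn: III with the lowest unspliced share, IV with the fewest bases able to pair with snRNA U1, V and VII with the most, and IX with the largest fall in splicing. Wobble pairs of G with U are left out of this pairing.
*srp1* intron I, chrII:3362970-3363015, plus strand: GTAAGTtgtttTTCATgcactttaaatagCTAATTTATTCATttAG
*srp1* intron II, chrII:3363073-3363121, plus strand: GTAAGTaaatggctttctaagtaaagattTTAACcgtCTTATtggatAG
*srp2* intron III, chrI:4426660-4426699, minus strand: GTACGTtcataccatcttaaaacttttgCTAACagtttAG
*srp2* intron IV, chrI:4426602-4426653, minus strand: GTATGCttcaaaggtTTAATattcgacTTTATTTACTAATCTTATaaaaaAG
*srp2* intron V, chrI:4426528-4426576, minus strand: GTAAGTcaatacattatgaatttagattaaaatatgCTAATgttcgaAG
*srp2* intron VII, chrI:4426111-4426198, minus strand: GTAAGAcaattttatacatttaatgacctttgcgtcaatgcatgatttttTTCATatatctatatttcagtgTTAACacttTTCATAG
*srp2* intron IX, chrI:4425838-4425892, minus strand: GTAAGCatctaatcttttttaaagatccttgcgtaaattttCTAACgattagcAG

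Gene *srp1* (SPBC11C11.08) lies on chromosome II from 3362844 to 3364515 on the plus strand, with exons of 126, 57 and 1394 nt. Gene *srp2* (SPAC16.02c) lies on chromosome I from 4424648 to 4426992 on the minus strand, with 10 exons. Exon 4 of *srp2* is only 6 nt long, and a read that crosses both the splice junction of intron III and that of intron IV is counted at both. The last exon of *srp2* holds 588 of the 1098 coding nucleotides and that of *srp1* 685 of 828. All 11 introns interrupt the coding sequence, so that none lies in a UTR. An annotated lncRNA, SPNCRNA.986, runs on the opposite strand across all 9 introns of *srp2*. The libraries were directional and the orientation of reads was used in the alignment, but whether the counting of reads separated the strands is not given in the sources used here. In untreated cells the unsplit reads of these introns ranged from 1 at intron III to 108 at intron VII. Whether reads of the lncRNA are among them was not tested.

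**Figure D1:**
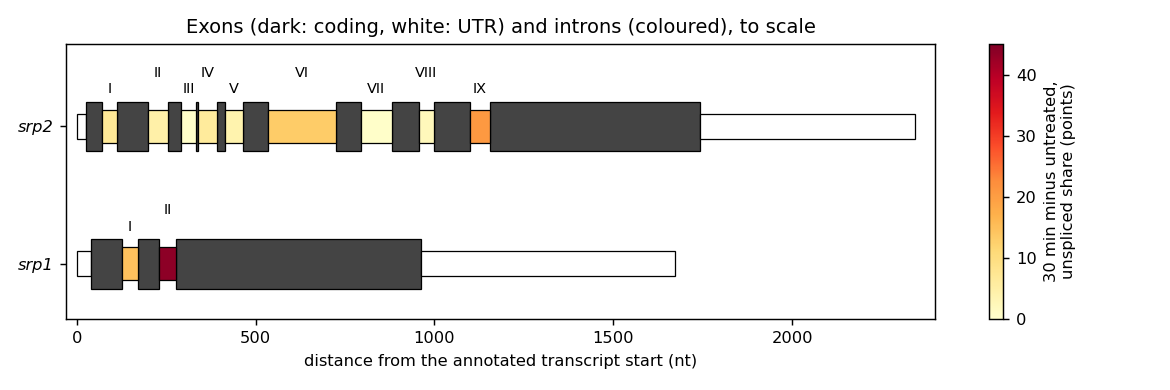
Maps of *srp2* (upper) and *srp1* (lower), drawn to scale along the distance from the annotated transcript start in nt, with coding exons dark, UTRs white and introns coloured by the unspliced share at 30 min minus that in untreated cells in percentage points. The strongest colour is intron II of *srp1* (43.7 points), and within *srp2* intron IX (20.6 points) is next to introns with much smaller differences, such as VII (0.45 points) and VIII (2.22 points).

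Splicing was read at each 5’ exon junction from split reads, which join exon to exon, and unsplit reads, which continue into the intron. The Relative Splicing Efficiency Index (RSEI) is the log2 ratio of split to unsplit reads with 1 added to both, and the unspliced share is the unsplit part of both kinds of reads. The libraries held 910440 junction reads at 0 min, 852562 at 30 min and 743457 at 60 min, of which 6.92%, 30.0% and 22.8% were unsplit, and 1.07 to 1.22% of the reads lay at *srp1* and *srp2*. For comparison, 4171 introns were kept that had more than 10 reads per library and an untreated RSEI above 0, and all 11 introns of both genes were among them. Values in brackets after a share are exact (Clopper-Pearson) 95% intervals, and those of a difference are Newcombe 95% intervals. All treat reads as independent and cover counting error only, as each condition has 1 library. Reads are PCR products without molecular identifiers, so copies of 1 molecule can be counted repeatedly and the intervals can be too narrow. An intron was called more unspliced where the exact intervals of both libraries did not overlap.

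Both introns of *srp1* were spliced less well at 30 min than in untreated cells. Intron I had 282 split and 4 unsplit reads at 0 min, 343 and 66 at 30 min, and 292 and 31 at 60 min. Its unspliced share was 1.40% (0.38 to 3.54) at 0 min, 16.1% (12.7 to 20.1) at 30 min and 9.60% (6.61 to 13.3) at 60 min. The intervals of both treated libraries lay above that of the untreated library, and the RSEI was 2.36 at 30 min against 5.82 in untreated cells, a change of -3.46. Intron II had 433 split and 38 unsplit reads at 0 min, 345 and 371 at 30 min, and 358 and 194 at 60 min. Its share was 8.07% (5.77 to 10.9) at 0 min, 51.8% (48.1 to 55.5) at 30 min and 35.1% (31.2 to 39.3) at 60 min. It was the intron of both genes with the highest unspliced share in each treated library, and the RSEI was -0.10 at 30 min against 3.48 in untreated cells, a change of -3.58.

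By the change in RSEI the introns of *srp1* were thus alike, while in percentage points intron II differed by 43.7 (39.1 to 48.0) and intron I by 14.7 (10.8 to 18.7) between 30 min and untreated cells. The intervals of introns II and I did not overlap in any of the 3 libraries, including the untreated one. Of all kept introns, 62.5% had a smaller fall of the RSEI at 30 min than intron I and 65.0% a smaller fall than intron II. Ranked by the difference in unspliced share instead, 29.5% had a smaller change than intron I and 66.5% than intron II, so the place of intron I depends on the measure. Unsplit reads relative to the library were 17.6-fold higher (6.57 to 66.6) at 30 min for intron I and 10.4-fold higher (7.46 to 15.0) for intron II. Split reads changed far less, with 1.30 (1.11 to 1.53) of the untreated level at intron I and 0.85 (0.74 to 0.98) at intron II. These and the later ratios of single introns are relative to all junction reads of the library and depend on this scaling. Summed over *srp1*, the split ratio was 1.03 on this scale and 1.37 relative to all split reads.

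In *srp2*, no intron had more unsplit than split reads in any library, but the introns differed widely. At the 5’ end of the gene, intron I (44 nt) had 465 split and 29 unsplit reads at 0 min, 501 and 74 at 30 min, and 365 and 49 at 60 min, or shares of 5.87%, 12.9% and 11.8%. Intron II (56 nt) had 754 and 50, 630 and 77, and 522 and 51 reads in the same order, or 6.22%, 10.9% and 8.90%. These are small changes in RSEI, of -1.21 for I and -0.87 for II at 30 min, and only 14.9% and 9.88% of all kept introns had smaller falls. The exact intervals of 30 min and untreated cells did not overlap for either intron, and at 60 min this held for intron I but not for intron II.

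Intron III, with 40 nt the shortest intron of both genes, was spliced almost completely at all times. It had 1383 split reads and 1 unsplit read at 0 min, 1184 and 7 at 30 min, and 1014 and 3 at 60 min. The share was 0.07% (0.00 to 0.40) at 0 min, 0.59% (0.24 to 1.21) at 30 min and 0.29% (0.06 to 0.86) at 60 min. The RSEI changed by -2.22 at 30 min, yet this rests on 7 unsplit reads against 1, the exact intervals overlapped, and the unsplit ratio of 7.48 had an interval of 0.96 to 337. At 30 min only 0.58% of the kept introns had a lower unspliced share.

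Introns IV and V, both spliced almost completely in untreated cells, were less completely spliced at 30 and 60 min. Intron IV (52 nt) had 1536 split and 5 unsplit reads at 0 min, 1227 and 86 at 30 min, and 1057 and 61 at 60 min, with shares of 0.32% (0.11 to 0.76), 6.55% (5.27 to 8.03) and 5.46% (4.20 to 6.95). Intron V (49 nt) had 1660 and 4, 1762 and 76, and 1497 and 49 reads, with shares of 0.24% (0.07 to 0.61), 4.13% (3.27 to 5.15) and 3.17% (2.35 to 4.17). The treated intervals lay above the untreated ones in both introns. On the log2 scale these were large changes, -4.18 for IV and -3.86 for V at 30 min, while in points of the unspliced share they were 6.23 (4.94 to 7.71) and 3.89 (2.99 to 4.92). Unsplit reads relative to the library were 18.4-fold (7.57 to 58.0) higher at IV and 20.3-fold (7.61 to 76.4) higher at V.

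Intron VI is with 190 nt the longest of both genes, against a median of 56 nt over the kept introns. It had 1098 split and 84 unsplit reads at 0 min, 863 and 218 at 30 min, and 738 and 159 at 60 min. The share was 7.11% (5.71 to 8.72) at 0 min, 20.2% (17.8 to 22.7) at 30 min and 17.7% (15.3 to 20.4) at 60 min. The difference of 13.1 points (10.3 to 15.9) at 30 min was exceeded within *srp2* only by that of intron IX, although by RSEI the change was -1.71, and 23.9% of the kept introns had a smaller fall.

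Introns VII and VIII had the smallest changes in RSEI of both genes at 30 min. Intron VII (88 nt) had 1144 split and 108 unsplit reads at 0 min, 1633 and 163 at 30 min, and 1142 and 129 at 60 min, with shares of 8.63% (7.13 to 10.3), 9.08% (7.79 to 10.5) and 10.1% (8.54 to 11.9). It was the most unspliced intron of *srp2* in untreated cells by its share, and the least changed. The 30 min share minus the untreated one was 0.45 points, with an interval of -1.64 to 2.46, and the RSEI changed by -0.08, so that 3.02% of the kept introns had a smaller fall. Intron VIII (44 nt) had 298 and 10, 398 and 23, and 313 and 17 reads, with shares of 3.25%, 5.46% and 5.15%. For this intron the difference at 30 min was 2.22 points (-0.96 to 5.21), which was not detectable as a change at this depth. Both kinds of reads were more frequent at 30 min than in untreated cells at intron VII, with ratios of 1.61 (1.26 to 2.07) for unsplit and 1.52 (1.41 to 1.65) for split reads, and the split ratio at VIII was 1.43 (1.22 to 1.66).

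Intron IX (55 nt), the last intron, had 312 split and 3 unsplit reads at 0 min, 309 and 85 at 30 min, and 262 and 46 at 60 min. The share was 0.95% (0.20 to 2.76) at 0 min, 21.6% (17.6 to 26.0) at 30 min and 14.9% (11.1 to 19.4) at 60 min. This was the largest fall of RSEI in both genes, -4.44 at 30 min, and 81.9% of the kept introns had a smaller one. By the difference in unspliced share, however, only 38.1% had a smaller change. Unsplit reads were 30.3-fold higher (10.01 to 150) at 30 min, a ratio that rests on the 3 unsplit reads of untreated cells, and split reads had a ratio of 1.06 (0.90 to 1.24). Introns VIII and IX, separated by an exon of 100 nt, therefore differed by 20.6 against 2.22 points in the same comparison.

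**Figure D2:**
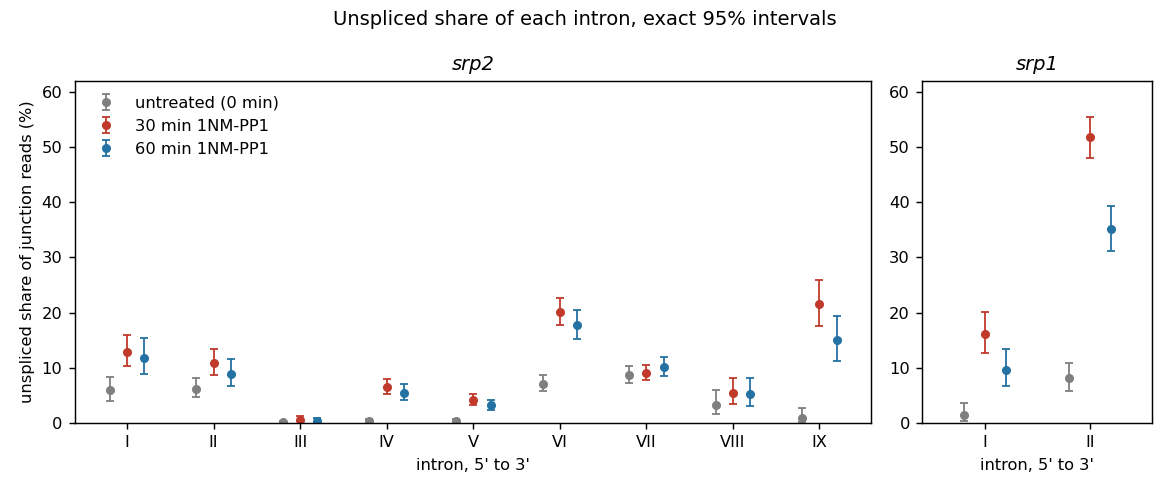
Unspliced share of junction reads (%) for the introns of *srp2* (left) and *srp1* (right), 5’ to 3’, in untreated cells (grey), at 30 min (red) and at 60 min (blue), with exact 95% intervals of counting error and 1 library per point. In *srp2* the shares stay under 22%, introns III, VII and VIII have intervals that overlap at all times, and intron II of *srp1* reaches 51.8% at 30 min.

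**Figure D3:**
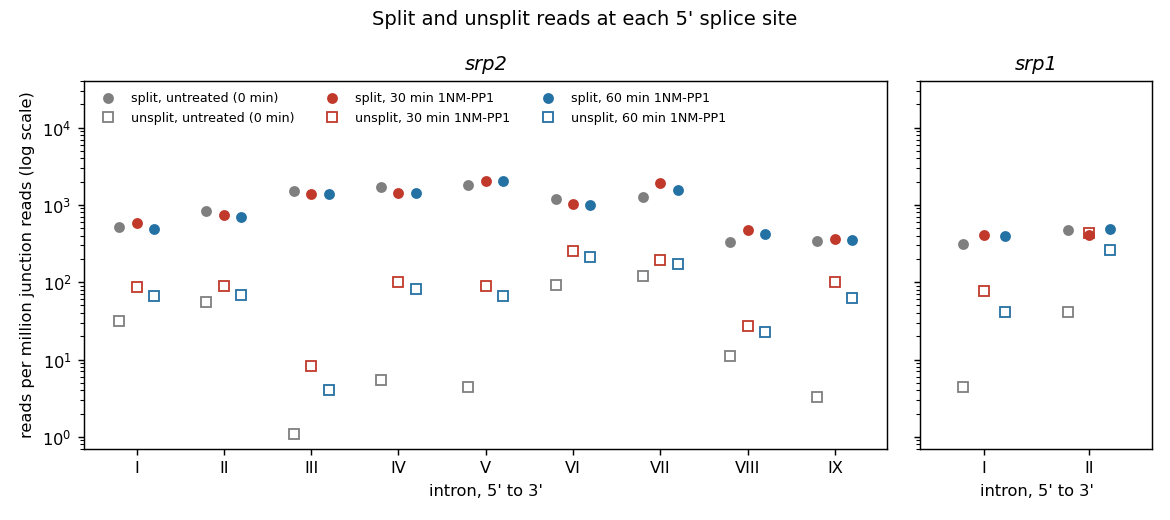
Split (filled circles) and unsplit reads (open squares) per 1000000 junction reads of the library, on a log axis, for each intron of *srp2* (left) and *srp1* (right) at 0, 30 and 60 min. Split reads lie close together across the 3 libraries at most introns, with ratios of 1.52 at VII and 1.43 at VIII of *srp2* between 30 min and untreated cells. Unsplit reads of *srp2* introns IV, V and IX and of both *srp1* introns are far lower in untreated cells.

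Counted over the genes, 6 of 9 introns of *srp2* (I, II, IV, V, VI and IX) and 2 of 2 of *srp1* were called more unspliced at 30 min than in untreated cells, against 70.3% of all kept introns. With a RSEI lower by at least 1 as the rule, 6 of 9 (I, III, IV, V, VI and IX) and 2 of 2 were called, against 88.2% of all. At 60 min, 5 of 9 introns of *srp2* and 2 of 2 of *srp1* were called more unspliced than in untreated cells by the intervals, against 51.6% of all, and 6 of 9 and 2 of 2 by the RSEI rule, against 77.2%. Whether intervals overlap depends on depth, and at 0 min the median number of reads was 1182 over the introns of *srp2* and 85 over all kept introns. With more than 50 reads required in each library, 1848 of 2364 introns were called at 30 min and 1420 at 60 min by the intervals. Both comparisons use the same untreated library and are not independent. The median change in RSEI at 30 min was -1.71 over the introns of *srp2* and -3.52 over those of *srp1*, beside -2.92 over all kept introns.

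More unsplit than split reads, a RSEI below 0, were found at 30 min in 0 of 9 introns of *srp2* and in 1 of 2 of *srp1*, beside 37.6% of all kept introns, and at 60 min in 0 of 9 and 0 of 2, beside 24.2%. The median unspliced share over the *srp2* introns was 3.25% at 0 min, 9.08% at 30 min and 8.90% at 60 min, while over all kept introns it was 6.47%, 38.4% and 24.4%. At 30 min, between 0.58% (III) and 30.4% (IX) of all kept introns had a lower share than an intron of *srp2*, while for *srp1* this was 23.0% at intron I and 63.7% at intron II.

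**Figure D4:**
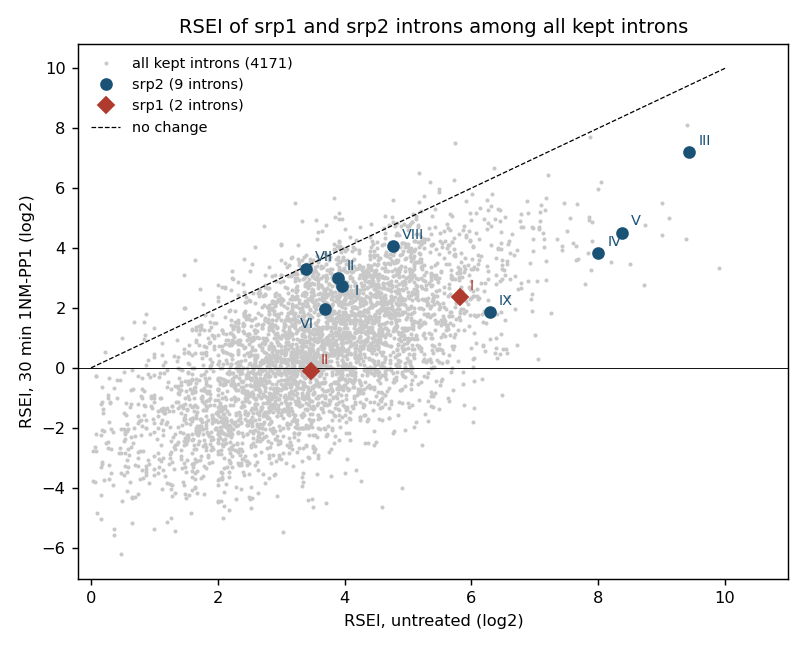
RSEI at 30 min of 1NM-PP1 (vertical, log2) against RSEI in untreated cells (horizontal, log2) for 4171 kept introns (grey), *srp2* (blue circles) and *srp1* (red diamonds), with the line of no change dashed. Intron VII of *srp2* lies next to this line with a change of -0.08, intron IX is far under it with -4.44, and intron II of *srp1* is the only labelled intron with a RSEI below 0.

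Between 30 and 60 min the unspliced share of intron II of *srp1* was lower at 60 min, 35.1% against 51.8%, a difference of -16.7 points (-22.0 to -11.2) with exact intervals that did not overlap. This was the only such intron, 1 of 2 in *srp1* and 0 of 9 in *srp2*, beside 17.6% of all kept introns. No intron of either gene had a RSEI higher by at least 1 at 60 min than at 30 min, beside 37.3% of all. In *srp1*, however, intron II was just under this step with 0.985, and intron I had 0.835. The median change was 0.91 over *srp1*, 0.27 over *srp2* and 0.78 over all kept introns. In intron I of *srp1* and intron IX of *srp2* the shares were lower at 60 min by Newcombe intervals alone, with differences of -6.54 points (-11.3 to -1.61) and -6.64 points (-12.2 to -0.83). For the other 8 introns of *srp2* the interval of the difference included 0, and 7 of these shares were lower at 60 min, with intron VII as the exception.

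Within a library, introns of the same gene could be ordered by unspliced share. In untreated cells the order in *srp2* was III, V, IV, IX, VIII, I, II, VI and VII with overlapping intervals for all neighbours, although 20 of 36 pairs of introns were separate. At 30 min the order was III, V, VIII, IV, VII, II, I, VI and IX, where III was separate from V, and I from VI, and 28 of 36 pairs were separate. Intron IX thus stood last at 30 min and before VIII, I, II, VI and VII in untreated cells, while VII stood before II, I, VI and IX at 30 min and last in untreated cells. At 60 min the order was III, V, VIII, IV, II, VII, I, IX and VI, in which only III was separate from its neighbour. The RSEI changes at 30 min spanned 4.36 from VII to IX, more than the range within 75.9% of the 108 genes with at least 5 kept introns, whose median range was 3.48. A range tends to widen with the number of introns, and these genes were not matched to the 9 introns of *srp2*. Introns of 1 gene share transcripts and are not replicates.

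Bases able to pair with snRNA U1 were counted from -3 in the exon to +6 of the intron, out of 9. Wobble pairs of G with U, which the paper also considers, were not counted. Introns IV, VI and VIII of *srp2* could form such pairs in the exon, so their counts are minimum values. Intron V of *srp2* (ccgGTAAGT) and intron VII (cagGTAAGA) each had 8, with the exon bases in lower case, and they differed widely in the change of RSEI. Among 323 kept introns with 8 such bases, 91.6% had a smaller fall of the RSEI at 30 min than intron V and 8.05% a smaller one than VII, and the median change was -1.81. By the difference in unspliced share both were low among all kept introns, of which 9.33% had a smaller change than V and 3.24% than VII, while by RSEI these shares were 71.0% and 3.02%. Intron IV (ttcGTATGC) had 4, and its change of -4.18 was close to the median of -4.16 over 91 introns with 4. Both introns of *srp1* (gccGTAAGT and accGTAAGT), and I, III, VI and IX of *srp2* (aagGTTTGT, atgGTACGT, taaGTACGT and cctGTAAGC), had 6, and their changes spread from -1.21 to -4.44 around the median of -2.96 over 1708 introns with 6. Introns II (gagGTAAAT) and VIII (tggGTAAGT) had 7 and changed by -0.87 and -0.71, where the median of 1168 introns was -2.56. With any base allowed at +4, introns I, III and VI would have 7 and IV would have 5.

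**Figure D5:**
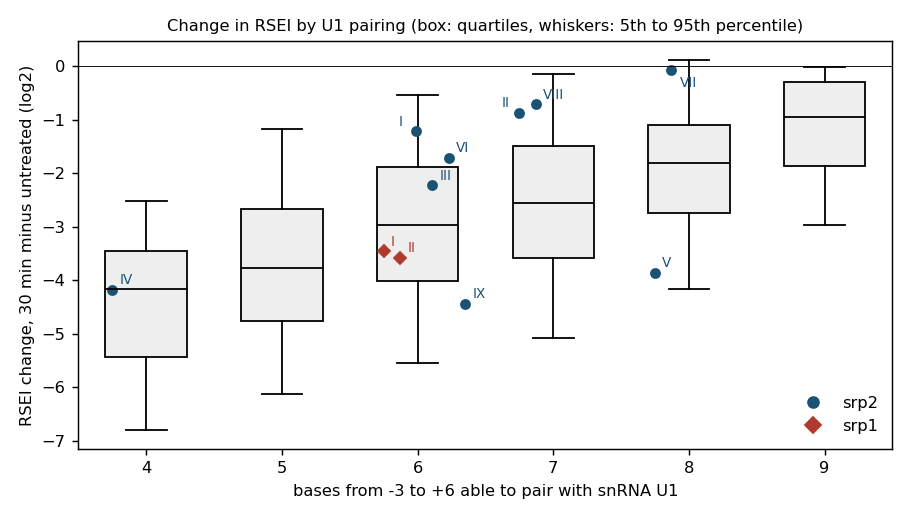
Change in RSEI at 30 min minus untreated cells (vertical, log2) by the number of bases from -3 to +6 able to pair with snRNA U1 (horizontal) for kept introns with sequence, with the median, quartiles and 5th to 95th percentiles as boxes and whiskers, and the introns of *srp2* (blue circles) and *srp1* (red diamonds) marked. The 3 introns with 3 such bases are not drawn, and introns V (-3.86) and VII (-0.08) of *srp2* lie on both sides of the box at 8 bases. Wobble pairs of G with U are not counted.

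The pentamer CTAAC was present in the last 40 nt of *srp2* introns II, III, VI, VIII and IX, and of 45.5% of the kept introns with sequence. These 5 introns include the largest fall (IX, -4.44) and one of the smallest (VIII, -0.71). The other *srp2* introns, I, IV, V and VII, and both introns of *srp1* had other pentamers, and their falls at 30 min also ranged widely, from -0.08 at VII to -4.18 at IV. None of the 11 introns has a length that is a multiple of 3, as for 67.8% of 4075 kept introns inside a coding sequence, and retained alone each would bring a stop codon into the reading frame, as for 86.9% of these. In both *srp1* introns and in V and VIII of *srp2*, the first such stop codon starts at base 2 of the intron, and in intron IX it starts at base 10.

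Summed over its introns, *srp1* had an unspliced share of 5.55% (4.03 to 7.43) at 0 min, 38.8% (36.0 to 41.8) at 30 min and 25.7% (22.8 to 28.7) at 60 min. The share of *srp2* was 3.29% (2.93 to 3.68), 8.68% (8.12 to 9.27) and 7.55% (6.96 to 8.17). The sum for *srp2* rests mostly on introns III to VII, where the reads are most frequent, and leaving out 1 intron at a time gave 7.18 to 9.87% at 30 min. Junction reads per 1000000 were 831 at 0 min, 1320 at 30 min and 1177 at 60 min for *srp1*, and 9824, 10927 and 10053 for *srp2*. These were 1.59-fold (1.45 to 1.74) at 30 min and 1.42-fold (1.28 to 1.56) at 60 min of the untreated level for *srp1*, and 1.11-fold (1.080 to 1.145) and 1.02-fold (0.99 to 1.06) for *srp2*. The median of 1238 genes moved by 0.13 on the log2 scale (1.10-fold) at 30 min and by 0.15 (1.11-fold) at 60 min, so that at 30 min *srp2* was close to this median and *srp1* above 87.0% of the genes. With split reads relative to all split reads, however, the ratios at 30 min were 1.37 for *srp1* and 1.40 for *srp2*. The median of the genes then moved by -0.05 on the log2 scale, so both genes were above it. Split reads relative to all junction reads had ratios of 1.03 (0.92 to 1.14) for *srp1* and 1.05 (1.02 to 1.08) for *srp2* at 30 min. The place of *srp2* near the median and the order of both genes thus depend on the reads counted and on the total used for scaling. Amounts of RNA per cell were not measured.

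Among genes with at least 100 junction reads in each library and 2 or more introns, 886 in all, those most like *srp1* over the 3 libraries were SPCC1259.12c, *rrp41* (SPAC3G9.10c), encoding a core subunit of the exosome, and SPAPB2B4.06, with root mean square differences of the summed log2 ratio of 0.035, 0.052 and 0.089. At 30 min their summed unspliced shares were 38.2%, 37.5% and 36.4%. Most like *srp2* were *rpt1* (SPBC16C6.07c), encoding an ATPase of the 19S proteasome cap, *tif211* (SPAC3G9.09c), encoding the alpha subunit of translation initiation factor eIF2, and *spp27* (SPCC285.17), with differences of 0.087, 0.134 and 0.161. Their shares at 30 min were 9.38%, 8.35% and 9.29%. This likeness covers 3 libraries only.

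Other genes of the splicing machinery were taken as a list of SR protein partners, kinases acting on SR proteins, importins, and U1, U2, U4/U6·U5 and Prp19 complex proteins. Of 59 genes, 35 had kept introns, 82 in all. Of these, 53 (64.6%) were called more unspliced at 30 min than in untreated cells, beside 70.3% of all kept introns, and 30 (36.6%) at 60 min, beside 51.6%, and 0 were called less unspliced at either time. Their median change in RSEI at 30 min was -2.51, which lies between the medians of *srp2* and *srp1*, and 16 of 82 had a RSEI below 0 at 30 min, beside 37.6% of all. The intron of *prp4* (SPCC777.14), the inhibited kinase itself, was not kept, as it had only 6 split and 0 unsplit reads at 0 min, 2 and 4 at 30 min, and 0 and 4 at 60 min. These junction reads do not cover the altered codon, which was not checked. Gene *rsd1* (SPAC19G12.07c), encoding an SR-like RNA-binding protein that contacts U1 and U2 particles in *S. pombe*, had 6 kept introns, none of them called, beside the 70.3% of all kept introns at 30 min, but most were shallow. At 30 min intron IV of *rsd1* had 9 split and 3 unsplit reads, intron V 11 and 2, and intron VI 8 and 3, a depth at which intervals are wide. Its intron II had 122 split and 7 unsplit reads at 0 min, 86 and 5 at 30 min, and 106 and 6 at 60 min, with shares of 5.43%, 5.49% and 5.36%. Over the *rsd1* introns the RSEI changes at 30 min ranged from -3.68 to 0.93, with overlapping intervals in all 6. No junction was found under *prp1*, under the SR protein kinase symbols *dsk1*, *lkh1* and *kic1*, or under *usp101*, *uaf2*, *prp2* and *srrm1*. These were not analysed, and symbols of the list can name the same gene.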

How the data were processed

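Polyadenylated RNA of the *prp4-as2* strain was sequenced at 3 times, with 1 library each. The read counts, split and unsplit, were deposited by the authors, who removed adapters with TagDust, aligned with TopHat to the Ensembl annotation, kept uniquely mapped reads and counted over the 5’ exon junctions without further normalization. SAMtools is named as well in the submitters’ processing notes. The deposited RSEI, a log2 value by the authors, was in all 5374 lines the log2 ratio of split + 1 over unsplit + 1. After 6 repeated lines were dropped, 5368 junctions were left, of which 5187 matched an annotated 5’ SS of an intron of at least 20 nt in the RefSeq assembly ASM294v3, and 99.8% of these introns begin with GT. Coordinates are 1-based and of that assembly, which may be later than the annotation of the authors.

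Pairing with snRNA U1 was counted where positions -3 to +6 held C, A, G, G, T, A, A, G and T, which leaves out wobble pairs of G with U. Of 62 symbols in the list of other splicing genes, 61 matched a gene, and these gave 59 genes. Named genes are *srp1* and *srp2*, those under 10 listed symbols of partners and kinases, and the 3 genes most like each SR gene. The members and lists were chosen with earlier results of these data known. Intervals and calls were tested on simulated data. Python 3.11.15, numpy 2.4.6, scipy 1.17.1 and matplotlib 3.10.9 were used. Alternatives changed the added count, the summary per gene, the introns in the sum, the call rule, the confidence level, the read filter, the condition on the untreated RSEI, the measure of change, the scaling of the libraries and the pairing rule.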

Additional observations from a re-analysis of the deposited data

How the results depend on the processing

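No paired analysis was possible because each condition has 1 library, and no replicate could be left out. By Newcombe intervals of the difference 7 of 9 introns of *srp2* were called at 30 min (III in addition), and with 99% intervals 5 of 9. As the median of its introns in place of summed reads, the unspliced share of *srp1* was 34.0% at 30 min and 22.4% at 60 min, and that of *srp2* 8.90% at 60 min. With more than 50 reads required in each library, 1848 of 2364 introns of all genes were called more unspliced at 30 min and 1420 at 60 min than in untreated cells. These numbers are lower than the 2932 and 2153 of 4171 introns with more than 10 reads, but the shares called are higher. The ratio of *srp1* at 30 min was 1.37 with split reads relative to all split reads, in place of all junction reads. The ratio of *srp2* was 1.02 at 30 min and 0.938 at 60 min with median-of-ratios size factors. This 60 min value is below 1, where all junction reads gave 1.02 (0.99 to 1.06). With split reads relative to all split reads, the ratios of *srp2* were 1.40 at 30 min and 1.18 at 60 min. The summed share of *srp2* at 0 min was 3.88% without intron III, 3.90% without IV, 3.98% without V, 2.71% without VI and 2.42% without VII. At 30 min it was 9.87% without III, 9.80% without V, 7.18% without VI and 8.11% without IX, and at 60 min 8.69% without III, 8.69% without V and 6.16% without VI. Ranked by the difference in unspliced share instead of RSEI, IV of *srp2* shifted most (14.3% against 77.4% of kept introns with a smaller change). Large shifts were also found for V (9.33% against 71.0%), IX (38.1% against 81.9%) and III (3.33% against 33.2%) of *srp2*, and for I of *srp1* (29.5% against 62.5%). The other introns shifted little, such as VI of *srp2* (27.0% against 23.9%) and II of *srp1* (66.5% against 65.0%). Depth limits intron III, which had 1 to 7 unsplit reads per library, and intron VIII, which had 10 to 23. In untreated cells, introns IV, V and IX of *srp2* and intron I of *srp1* had only 5, 4, 3 and 4 unsplit reads. The size of their RSEI changes and their ranks by RSEI therefore also rest on few reads.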
